A study of Homo sapiens with 2 samples.

Results

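The genes described here build cholesterol, sense it and move it through the cell. The list holds 33 genes, taken by symbol from the pathway with earlier results of these data known: 20 of synthesis, 6 of the regulators around the transcription factor SREBP, 5 of uptake, trafficking and storage, and 2 liver X receptors. A gene could be read where a probe set (a group of short array probes for one transcript) carried its symbol alone. It counted as measured where its brightest probe set also reached a mean log2 signal of 4.25 over both arrays. The first held for 30 of the 33 genes, with 68 probe sets among 54675 on the array, and all 30 counted as measured. No probe set carried the symbol FDFT1 or NR1H2 alone, and the 2 probe sets of CYP51A1 are annotated together with another gene, so these 3 genes were not analysed here.

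RNA came from 2 stable populations of Panc1, an established human line from a pancreatic ductal adenocarcinoma. The mock population carried the vector alone, and the other population, labelled Panc1/syk-wt, was carried introduced wild-type SYK, a tyrosine kinase of the cytoplasm. Both were selected with hygromycin, kept below confluence and otherwise untreated, and the series title calls the mock cells drug-resistant. Each population gave 1 Affymetrix array, so no value below has a replicate error and no test between the populations could be made. The population, its RNA preparation and its array therefore cannot be told apart.

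Cells make cholesterol from acetyl-CoA through mevalonate, isoprenoid diphosphates, squalene and lanosterol. When sterols in the endoplasmic reticulum are low, SCAP carries SREBP to the Golgi, where proteases release its active part, which turns on the genes of synthesis and uptake. When sterols are plentiful, INSIG proteins hold SCAP back and oxysterols activate the liver X receptors, which favour export of cholesterol.

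The syk label had little support from the array itself. The brightest of 4 SYK probe sets read 4.27 on mock and 4.73 on syk, both under 4.77, the brightest value among 27 control probe sets for Bacillus RNA, and the 4 differences ran from -0.27 to 0.46. That limit rests on 1 control probe set. The next reached 3.61, and the brightest SYK probe set, PECAM1 and DCN read above 3.61 on both arrays. Whether these probe sets lie within the introduced cDNA was not analysed here, so directions rest on the labels, and "the syk array" means the array so labelled. The 5 ductal epithelial markers KRT7, KRT8, KRT18, KRT19 and EPCAM read between 5.99 and 13.34. Of 5 markers of other cells, 4 (PTPRC, PECAM1, INS and DCN) lay under 4.77 on both arrays, while the stromal marker ACTA2 read 5.18 on mock and 4.44 on syk. Signal at the 3' end of the ACTB control exceeded that at its 5' end by 1.95 on mock and by 2.37 on syk. For the GAPDH control the excess was 0.19 on mock and 0.32 on syk. These values are a guide to RNA integrity, whose part in the differences below was not tested.

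Genes of cholesterol synthesis and uptake were lower on the syk array nearly throughout. Of the 30 measured genes, 28 had a difference (syk minus mock, on the log2 scale) below 0, against 47.8% of the 12814 genes measured. At least 2-fold lower were 9 of the 30, where 3.65% of all genes were, and at least 2-fold higher were 0 of the 30, where 3.61% of all genes were. The median difference of the 30 genes was -0.79, a 1.73-fold lower signal, while the median of all measured genes was 0.01. At 1.5-fold, 17 of the 30 were lower and 1 was higher, beside 10.5% and 12.2% of all genes. With no replicate, the only guide to precision is the spread between probe sets of one gene, whose pooled SD of the difference was 0.35 over 6028 genes and 0.38 over 15 cholesterol genes, counting genes with more than 1 probe set past a filter on dim signal. This spread covers probe behaviour and not variation between cultures. The 5th to 95th percentile of all measured genes ran from -0.87 to 0.89, so a difference beyond 0.35 was common on these arrays.

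**Figure D1:**
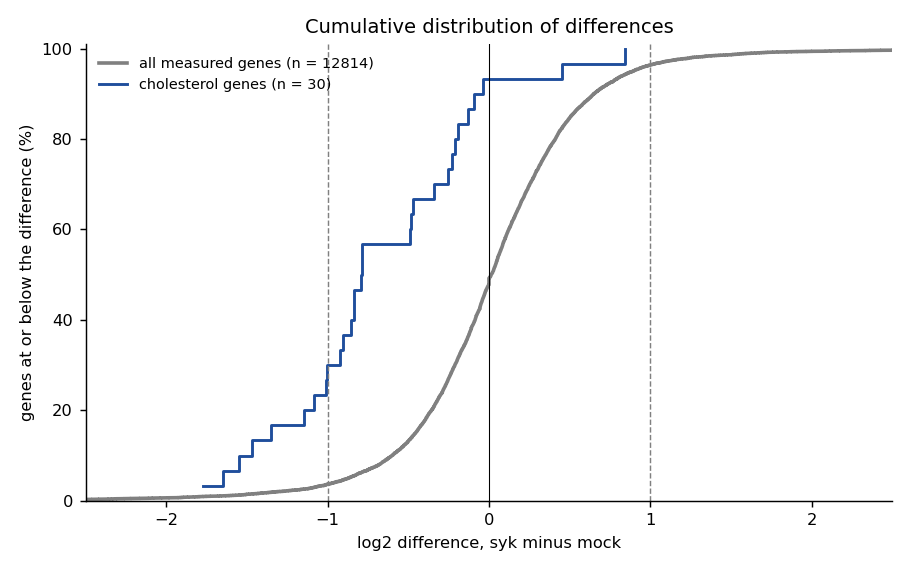
Cumulative share of genes (vertical axis, percent) at or below each log2 difference, syk minus mock (horizontal axis), for the 30 measured cholesterol genes and for all 12814 measured genes; dashed lines mark 2-fold. The curve of the cholesterol genes lies left of the other, with 28 of 30 genes below 0 and a median of -0.79 against 0.01.

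The single probe sets gave the same picture as the genes, but the brightest probe sets that stand for the genes are among them. The other probe sets read the same RNA, so these counts are not separate support. Of 58 probe sets of the cholesterol genes past that filter, 50 were below 0, where 48.8% of all such probe sets were. At least 2-fold lower were 16 of the 58, beside 3.48% of all such probe sets, and 0 were at least 2-fold higher. For 12 of the 15 genes read by more than 1 such probe set, these were all below 0, beside 29.6% of the 6028 such genes on the array. The 3 others were EBP, SREBF2 and MYLIP, described below.

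The bases before the transcription start are shown for 5 genes lower by at least 2-fold (HMGCS1, LSS, DHCR7, INSIG1 and STARD4). They are also shown for SREBF2, which hardly differed, and for MYLIP, which was higher. Whether these bases have a part in the differences was not tested. Each line holds the 180 bases upstream of a start from RefSeq (GRCh38.p14), written along the gene's strand. Where the table holds several starts, as for HMGCS1 and DHCR7, the start with most CCAAT boxes was taken. Capitals mark CCAAT boxes on either strand (ATTGG is the reverse), the core of the sterol regulatory element TCACNCCAC, and the E-box CACGTG.
HMGCS1, chr5:43313413-43313592, minus strand: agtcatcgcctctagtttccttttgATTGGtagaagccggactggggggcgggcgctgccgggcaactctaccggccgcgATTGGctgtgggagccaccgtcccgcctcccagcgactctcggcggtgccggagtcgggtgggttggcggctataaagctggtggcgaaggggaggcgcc
LSS, chr21:46228775-46228954, minus strand: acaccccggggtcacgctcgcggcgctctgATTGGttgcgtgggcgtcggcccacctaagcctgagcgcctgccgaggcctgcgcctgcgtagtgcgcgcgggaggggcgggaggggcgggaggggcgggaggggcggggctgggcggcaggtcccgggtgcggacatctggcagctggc
DHCR7, chr11:71448394-71448573, minus strand: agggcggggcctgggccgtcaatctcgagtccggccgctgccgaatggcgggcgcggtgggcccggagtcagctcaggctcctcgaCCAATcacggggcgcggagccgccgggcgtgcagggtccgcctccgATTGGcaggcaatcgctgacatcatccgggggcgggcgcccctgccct
INSIG1, chr7:155297698-155297877, plus strand: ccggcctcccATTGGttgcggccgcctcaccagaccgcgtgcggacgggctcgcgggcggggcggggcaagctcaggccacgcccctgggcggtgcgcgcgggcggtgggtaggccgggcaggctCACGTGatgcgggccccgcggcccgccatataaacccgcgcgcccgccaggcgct
STARD4, chr5:111512536-111512715, minus strand: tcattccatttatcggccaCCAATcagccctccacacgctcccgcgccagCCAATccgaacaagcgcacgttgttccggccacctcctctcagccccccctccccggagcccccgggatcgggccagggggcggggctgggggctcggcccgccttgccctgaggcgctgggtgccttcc
SREBF2, chr22:41832925-41833104, plus strand: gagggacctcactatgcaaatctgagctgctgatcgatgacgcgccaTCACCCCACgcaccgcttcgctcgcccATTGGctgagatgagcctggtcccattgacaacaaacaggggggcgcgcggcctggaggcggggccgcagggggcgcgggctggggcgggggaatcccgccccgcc
MYLIP, chr6:16128906-16129085, plus strand: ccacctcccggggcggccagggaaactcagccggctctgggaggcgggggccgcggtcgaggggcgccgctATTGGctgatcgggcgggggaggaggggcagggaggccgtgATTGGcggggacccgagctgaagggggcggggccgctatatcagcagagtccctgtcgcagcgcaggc

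All 7 windows hold a CCAAT box, which for HMGCS1 and DHCR7 follows from the choice of start, since their other starts in the table have none. This box is the site of the factor NF-Y, which is known to act beside SREBP at sterol-regulated promoters. HMGCS1, DHCR7, STARD4 and MYLIP hold 2 each, and LSS, INSIG1 and SREBF2 hold 1. In STARD4 the boxes begin 161 and 130 bases before the start, and in DHCR7 94 and 48 bases. INSIG1 alone of the 7 has an E-box in its window, and SREBF2 alone has the sterol element core, 133 to 125 bases before its start. Over the whole promoter entries (250 bases before to 50 after a start), 29 of the 33 genes had at least 1 entry, 41 entries in all. A CCAAT box was found for 21 of these 29 genes (72.4%), beside 42.7% of the 10377 measured genes with an entry and 34.6% of all 35116 entries. The GC box GGGCGG was found for 27 of the 29, beside 75.9% of measured genes and 45.0% of entries. The E-box occurred in 4 of the 29, those of INSIG1, LSS, SC5D and SCAP, beside 12.6% of measured genes and 7.26% of entries. The sterol element core occurred in 1 of the 29, beside 1.42% of measured genes and 1.13% of entries. No match overlapped a match of another motif in these entries, and a missing match says only that those letters are not in the window.

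The 8 genes of the mevalonate steps had differences below 0 and a median of -0.71, and 3 passed 2-fold. ACAT2, the cytosolic thiolase that joins acetyl-CoA units, read 10.15 on mock and 8.81 on syk, which is 2.55-fold lower. HMGCS1, which makes HMG-CoA, read 7.36 and 6.28, 2.12-fold lower, and its other probe set differed by -1.27. IDI1, which isomerises isopentenyl diphosphate, read 10.35 and 9.20, 2.21-fold lower. Their differences lay below those of at least 97.0% of all measured genes. The probe sets of IDI1 did not behave alike: 3 differed by between -1.19 and -0.88 and the last, the dimmest of them, by -0.02. The 2 brightest IDI1 probe sets belong to the _x_at class, whose probes can also match other transcripts.

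Between these enzymes lie genes whose signal was close on both arrays. Mevalonate kinase, MVK, read 7.56 on mock and 7.33 on syk, a difference of -0.23, although another of its probe sets differed by -0.69. The phosphomevalonate kinase PMVK read 8.34 and 8.21, a difference of -0.13 that was the smallest among the synthesis genes. MVD, which decarboxylates mevalonate diphosphate, read 5.85 and 5.36, a difference of -0.49. The kinases thus differed by less than the 0.35 spread between probe sets, and MVD by more. Farnesyl diphosphate synthase, FDPS, read 10.61 and 9.69, which is 1.90-fold lower and the nearest to 2-fold among the genes short of it. GGPS1, which leads away from sterols by making geranylgeranyl diphosphate, read 9.99 and 9.65, with its 2 probe sets at -0.34 and -0.33.

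**Figure D2:**
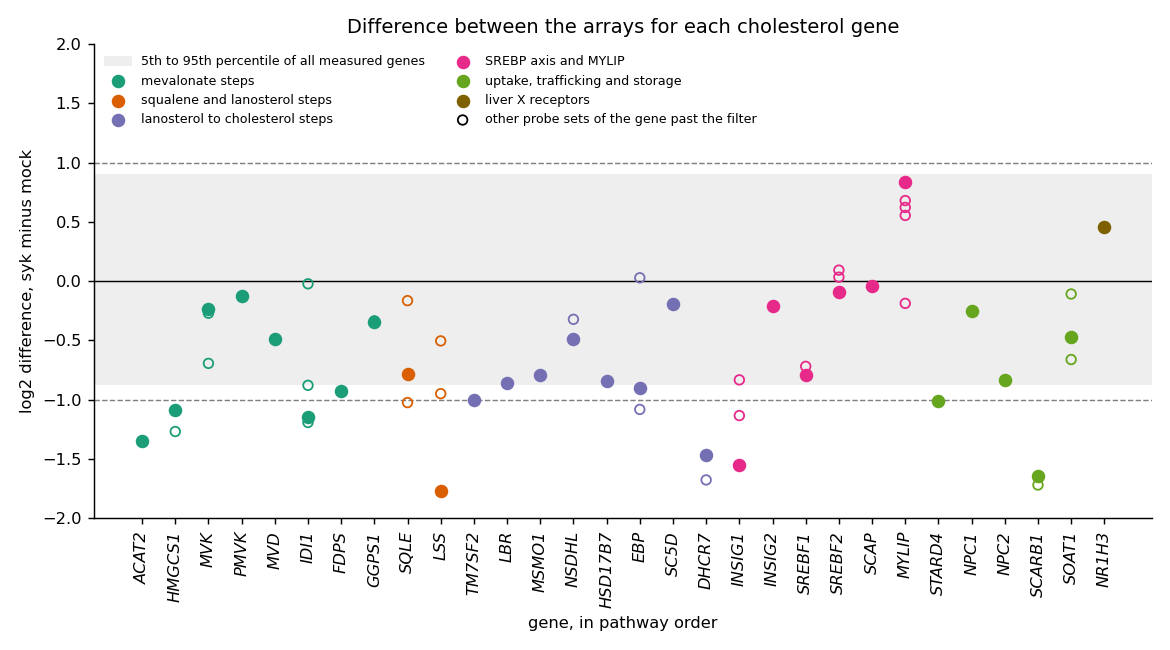
Log2 difference, syk minus mock (vertical axis), of each measured cholesterol gene in pathway order (horizontal axis). Filled points are a gene's brightest probe set, open points its other probe sets past the filter, dashed lines mark 2-fold and the grey band spans the 5th to 95th percentile of all measured genes (-0.87 to 0.89). The filled points of the 18 synthesis genes lie below 0, LSS lowest at -1.77, and the filled points of MYLIP and NR1H3 lie above 0.

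At the entry to sterols, both measured enzymes were lower. LSS, which folds squalene epoxide into lanosterol, read 9.67 on mock and 7.90 on syk. This 3.42-fold lower signal was the largest difference among the brightest probe sets of the 30 genes and lay below the differences of 99.0% of all measured genes. The other LSS probe sets were far dimmer and differed by -0.95 and -0.50, the former with its syk value and the latter with both values under 4.77. Squalene epoxidase, SQLE, which adds the oxygen, read 9.73 and 8.94, 1.73-fold lower. Its other probe sets past the filter differed by -1.02 and -0.16, so the size of the SQLE difference depends on the probe set.

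From lanosterol to cholesterol all 8 measured enzymes were below 0, with a median of -0.85. DHCR7, which carries out the final reduction of the pathway branch through 7-dehydrocholesterol, read 10.00 on mock and 8.53 on syk, 2.76-fold lower, and its other probe set differed by -1.68. TM7SF2, a sterol C14 reductase, read 7.92 and 6.92, 2.01-fold lower and just past the 2-fold line. LBR, the lamin B receptor, which carries the same reductase activity, read 9.71 and 8.86, 1.81-fold lower. The difference between these C14 reductases, on 1 probe set each, was under the 0.35 spread between probe sets.

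The C4 demethylation enzymes MSMO1, NSDHL and HSD17B7, and EBP and SC5D after them, were also lower on syk and short of 2-fold. The C4 methyl oxidase MSMO1 read 10.61 on mock and 9.83 on syk, 1.73-fold lower. NSDHL, the decarboxylating dehydrogenase of this complex, read 8.97 and 8.48, a difference of -0.48, with -0.32 from its other probe set. HSD17B7, the ketoreductase of the complex, read 9.28 and 8.45, 1.79-fold lower, but from an _x_at probe set alone. EBP, the isomerase that follows, read 10.14 and 9.23, 1.87-fold lower. Of its other probe sets, 2 differed by -1.08 and -0.90, and the dimmest, under 4.77 on both arrays, by 0.03. The desaturase SC5D read 9.90 and 9.70, a difference of -0.19 within the spread between probe sets.

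**Figure D3:**
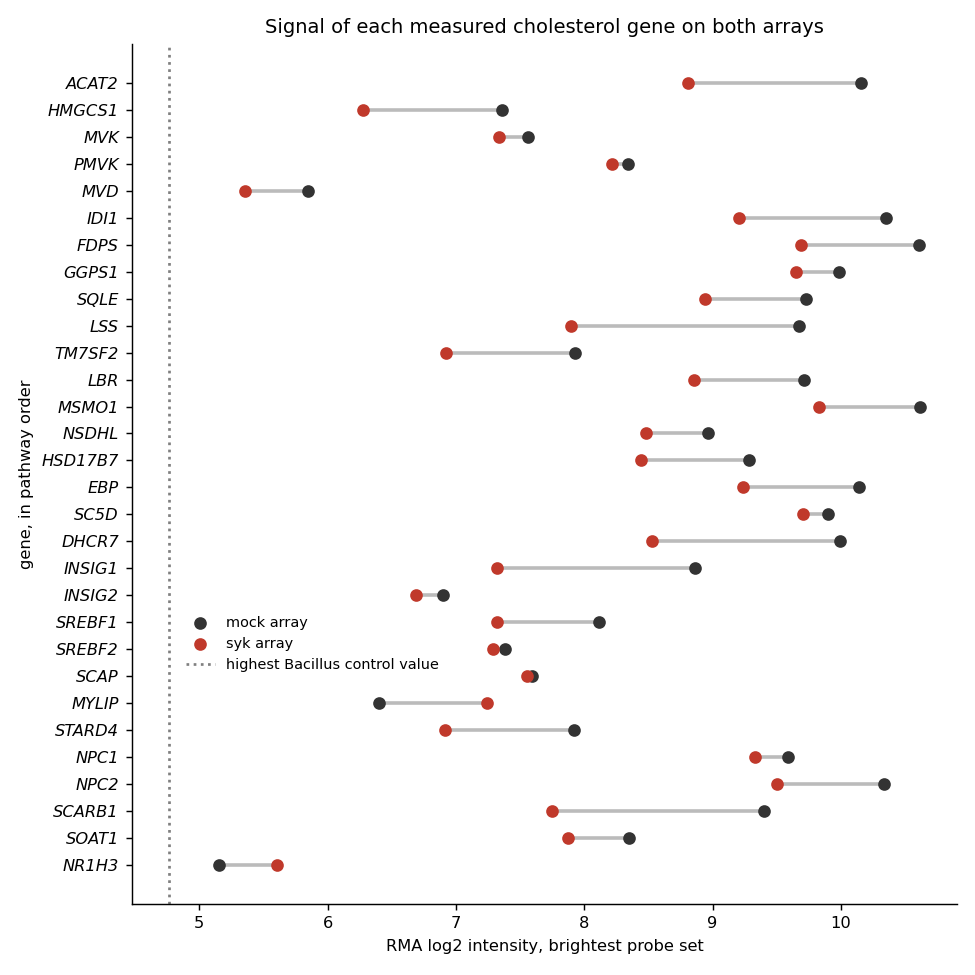
RMA log2 intensity (horizontal axis) of the brightest probe set of each measured cholesterol gene (vertical axis, pathway order) on the mock array (black) and the syk array (red); the dotted line is the brightest Bacillus control value, 4.77. All 60 values lie above that line, the mock value is the higher in 28 genes, and MYLIP and NR1H3 have the higher value on syk. Levels of different genes are not comparable, since probe sets differ in affinity.

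The regulators parted. INSIG1, the sterol-regulated anchor of SCAP and itself a well-known SREBP target, read 8.86 on mock and 7.32 on syk, 2.92-fold lower, with its other probe sets at -1.13 and -0.83. Its paralogue INSIG2, which is not driven by SREBP in the same way, read 6.90 and 6.69, a difference of -0.21. SREBF1, the gene of the SREBP form tied most to fatty acid synthesis, read 8.11 and 7.32, 1.73-fold lower, and its other probe set differed by -0.72. INSIG1 and SREBF1 were thus lower by more than the probe set spread in every probe set, and INSIG2 was not.

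SREBF2 and SCAP had nearly equal signal on both arrays. SREBF2, the gene of the SREBP form that governs cholesterol synthesis, read 7.38 on mock and 7.29 on syk. The sign of its difference rests on the probe set, -0.09 from the brightest and 0.03 and 0.09 from the others. SCAP, the escort of SREBP, read 7.59 and 7.55, a difference of -0.04. The arrays read RNA, so cleavage of SREBP and its amount in the nucleus were not measured.

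MYLIP, a ubiquitin ligase induced by liver X receptors that marks lipoprotein receptors for degradation, stood on the other side. It read 6.40 on mock and 7.24 on syk, 1.79-fold higher, where 5.77% of all measured genes differed by more in that direction. Of its 5 probe sets past the filter, 4 lay between 0.55 and 0.84 and 1 at -0.19. That last probe set is of the plain _at class and the others are not, so the direction turns to -0.19 with plain _at probe sets alone. NR1H3, the liver X receptor alpha, read 5.15 and 5.60 on its only probe set, a difference of 0.45 near the dim end of the array. Neither MYLIP nor NR1H3 reached 2-fold. SREBF1, also a known target of liver X receptors, lay on the other side of 0. Whether these receptors have a part in any of these differences was not tested.

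Genes that bring cholesterol in, move it and store it were all below 0, with a median of -0.83 over 5 genes and 2 of them at least 2-fold lower. SCARB1, the receptor that takes up cholesterol esters from high-density lipoprotein, read 9.40 on mock and 7.75 on syk, 3.13-fold lower. Its second bright probe set read 8.46 and 6.74, a difference of -1.72, while its 3 remaining probe sets lay under 4.77 on both arrays. STARD4, a soluble sterol carrier and SREBP target, read 7.92 and 6.91, 2.01-fold lower, just past the 2-fold line. By brightest probe sets SCARB1 and LSS had the largest differences in the list. With the mean over a gene's probe sets DHCR7 had the largest, at -1.57, with LSS at -1.07 and SCARB1 at -0.84.

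The lysosomal export proteins differed from each other. NPC2, the soluble lysosomal cholesterol carrier, read 10.33 on mock and 9.50 on syk, 1.78-fold lower. Its membrane partner NPC1 read 9.59 and 9.33, a difference of -0.26, and its 3 other probe sets were under 4.77 on both arrays. SOAT1, which esterifies cholesterol for storage, read 8.35 and 7.87, a difference of -0.47, with its other probe sets at -0.66 and -0.11. NPC1 thus lay within the spread between probe sets, and NPC2 beyond it on a single probe set.

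Lipid genes outside the list were read for comparison. Of 10 measured fatty acid genes, many of them SREBP targets as well, 3 passed 2-fold downward and 1 upward, and their median was -0.67. FADS2, a fatty acid desaturase, was 5.02-fold lower (9.18 on mock and 6.85 on syk) and the fatty acid synthase FASN 2.70-fold lower (9.50 and 8.07). The elongase ELOVL6 went the other way, with a syk value at least 2.42-fold above a mock value under 4.77. Genes that use isoprenoids for other ends, such as ubiquinone, dolichol and protein prenylation, had a median of 0.30 over 9 genes, 7 of them above 0 and 1 at least 2-fold higher. That gene was PDSS2, a subunit of the enzyme that makes the ubiquinone side chain, 2.37-fold higher (7.30 and 8.55). The shared prenyltransferase subunit FNTA was 1.89-fold higher and the dolichol-forming enzyme subunit DHDDS 1.68-fold higher. These 9 isoprenoid genes thus lay mostly above 0, where 6506 of all 12814 measured genes lay. The 18 measured synthesis genes lay below 0 on the same arrays, among them GGPS1, which itself leads away from sterols. The difference between the groups was not tested.

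**Figure D4:**
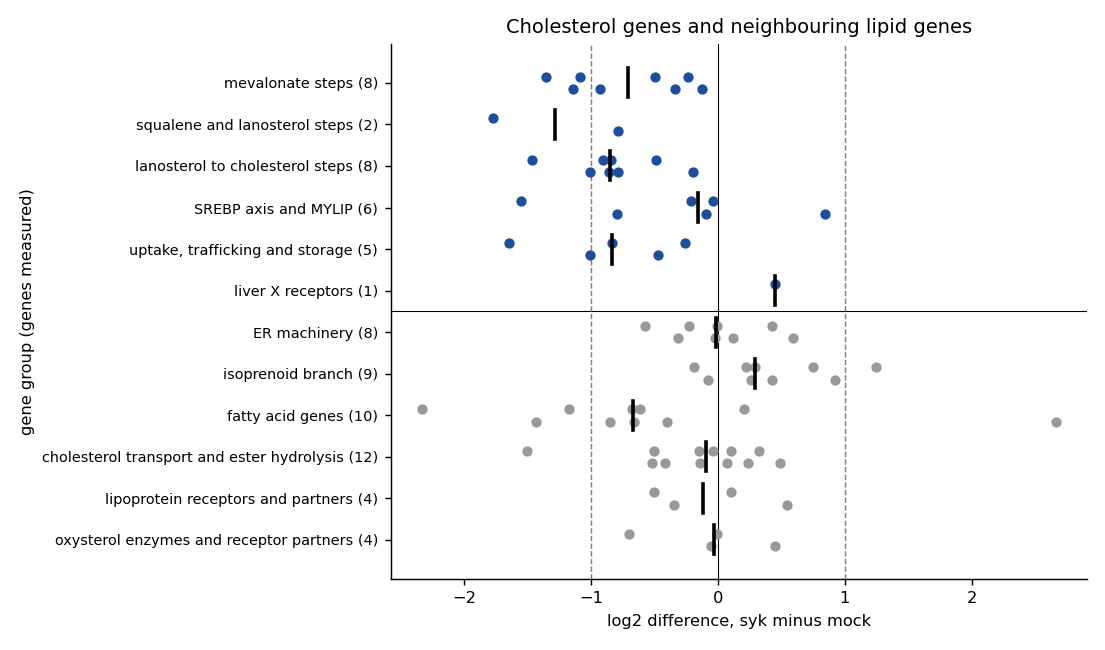
Log2 difference, syk minus mock (horizontal axis), of each measured gene in the groups of the cholesterol list (blue) and in groups of neighbouring lipid genes (grey), with the number of genes measured beside each name; black bars are medians and dashed lines mark 2-fold. Medians run from -1.28 for the 2 squalene and lanosterol genes to 0.45 for the single liver X receptor, and the isoprenoid branch has a median of 0.30.

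The remaining groups lay close to 0 as a whole. A mixed group of 8 genes covered SREBP processing, protein degradation controlled by sterols and other sterol-related functions. Its median was -0.01 and 0 passed 2-fold. The scaffold protein ERLIN2 was at 0.59, the SREBP protease MBTPS2 at -0.57 and the ubiquitin ligase RNF139 at 0.42. Of 12 genes of cholesterol transport and ester hydrolysis, 1 was at least 2-fold lower and the median was -0.09. That gene was LIPA, the lysosomal acid lipase that frees cholesterol from incoming lipoprotein esters, which read 11.15 on mock and 9.65 on syk, 2.83-fold lower. The oxysterol-binding proteins OSBPL8 and OSBPL5 differed by -0.52 and -0.50. Lipoprotein receptors and their partners had a median of -0.12 over 4 genes, with LRP8 at -0.50, LRP1 at -0.34 and VLDLR, dim on mock, at least 1.09-fold higher. Oxysterol enzymes and receptor partners had a median of -0.03 over 4 genes, with the nuclear receptors RXRA at -0.70 and RXRB at 0.45 and the sterol hydroxylase CYP27A1 at -0.06. LIPA and NPC2 were thus lower by more than the probe set spread and NPC1 was not. NPC2, at -0.83, still lay within the 5th to 95th percentile of all measured genes.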

How the data were processed

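Total RNA from 2 Panc1 populations was hybridised to 1 Affymetrix array each. The deposited table gives 1 value per probe set and array, made by the authors with RMA (background subtraction, quantile alignment of arrays, summary per probe set), per the submitters' processing notes; version and settings are not given in the sources used here. The deposited values were taken as log2 intensities from their range (2.14 to 14.56). RMA compresses differences between dim probe sets. Detection calls were not used here.

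Of 54675 probe sets, 41097 had 1 symbol in the platform annotation, 1801 had several and 11777 had none listed; the symbols of all 68 cholesterol probe sets matched current RefSeq gene IDs. Each gene was represented by its brightest probe set (mean of both arrays). Genes whose mean reached 4.25, the 50th percentile of all probe sets, counted as measured, which left 12814 of 19775 genes. Differences are syk minus mock, counted from 2-fold. Values at or below 4.77, the highest of 27 Bacillus control probe sets, were treated as dim, and a fold against one is a lower bound against 4.77. Depth has no counterpart here; the number of arrays limits the precision.

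Every measured cholesterol gene is named. Of each neighbouring list, up to 3 genes with the largest absolute difference are named. The genes and lists were chosen with earlier results of these data known. Promoter sequences are from RefSeq (GRCh38.p14). Calculations used Python 3.11.15, pandas 2.3.3 and statsmodels 0.14.6. The code was run on simulated data without noise, which checks the calculation and not how reliable a difference is. Alternatives were median centring, a loess trend (span 0.2), the mean or median over probe sets, plain _at probe sets, other filters, a floor at 4.77 and a 1.5-fold threshold.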

Additional observations from a re-analysis of the deposited data

How the results depend on the processing

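With 1 array per population there is no replicate to leave out, and differences can reflect array or preparation as well as population. No paired analysis was possible because each group has 1 sample. Under the other 9 scaling, probe set, filter and floor settings, the median difference ran from -0.82 to -0.74 for all measured cholesterol genes, from -0.88 to -0.80 for synthesis, from -0.86 to -0.82 for uptake, trafficking and storage, and from -0.19 to -0.04 for the regulators with NR1H3. The number of genes at least 2-fold lower was 9 with each filter, the loess trend and the floor, and 7 with median centring (3.42% of all genes), the mean over probe sets (2.39%) and their median (2.49%, with 28 of the genes measured). It was 5 of 23 with plain _at probe sets alone, where 3.78% of all genes were as low; ACAT2, TM7SF2 and DHCR7 have no such probe set and IDI1 read -0.88. At 1.5-fold it was 17 lower and 1 higher. TM7SF2 (-0.99) and STARD4 (-0.99) left 2-fold with median centring, IDI1 (-0.81) and SCARB1 (-0.84) with the mean over probe sets, and LSS (-0.95) with their median, under which SCARB1 and NPC1 were no longer measured. The SCARB1 and LSS values take in dim probe sets under 4.77. SREBF2 turned to 0.012 with the mean and to 0.034 with the median over probe sets or plain _at probe sets alone, and MYLIP turned to -0.19 with plain _at probe sets alone. Filters and the floor cannot alter the difference of a brightest probe set above them. Of the 141 values of single genes under the other 5 settings, 131 kept their sign and their side of 2-fold.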

Other observations

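The cholesterol genes with and without a CCAAT box in a promoter entry had different medians, a split made after the values were seen and not tested. The 21 measured genes with a box had a median difference of -0.83, and the 6 without (PMVK, LBR, INSIG2, SREBF1, SCAP and NPC1) a median of -0.23. Of these 6, LBR (-0.86) and SREBF1 (-0.79) lay near the median of the genes with a box. Over all measured genes with an entry the medians were 0.01 with a box and 0.01 without. Of the 9 genes at least 2-fold lower, 7 had an entry and all 7 of these held the CCAAT box. That box was found for 72.4% of the 29 cholesterol genes with an entry and for 42.7% of measured genes with one. MYLIP and NR1H3, the genes that were higher on the syk array, held it as well. The GC box was likewise in all 7, beside 93.1% of the 29 cholesterol genes and 75.9% of measured genes with an entry. The 25 measured genes with a GC box had a median of -0.79 and the 2 without -0.67. For the E-box the medians were -0.87 over 4 genes with it and -0.79 over 23 without. SREBF2, the 1 gene with the sterol element core, differed by -0.09, and the 26 without had a median of -0.79.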
